A study of Mus musculus with 9 samples.

Results

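Mice in which TDP-43 is deleted from myelinating glia were compared with their controls for 8 genes known as mis-spliced in mouse cells or tissues that lose TDP-43: Synj2bp, Mib1, Tecpr1, Ift81, Adnp2, Usp15, Sort1 and Poldip3. These 8 genes were taken by symbol from the 36121 genes of the series, and all 8 passed the minimum mean level used for testing. RNA was sequenced from sciatic nerve of 21-day-old mice in 3 groups of 3 libraries, each group with 2 females and 1 male. The TDP-43-cKO group (cKO) carried Cnp-Cre with both Tardbp alleles floxed (Cnp-Cre;Tardbp fl/fl), the TDP-43-cHet group (cHet) carried Cnp-Cre with 1 floxed allele (Cnp-Cre;Tardbp fl/+), and the control group was Tardbp fl/fl with no Cre. All 3 groups therefore carried at least 1 floxed Tardbp allele. The Cnp promoter drives Cre in Schwann cells of the nerve, and in oligodendrocytes of the central nervous system. Axons, fibroblasts, vessels and immune cells of the nerve are not its intended targets, but deletion by cell type was not measured in these libraries. Groups follow the sample titles. The genotype field of 3 libraries (cKO replicates 1 and 2, and cHet replicate 1) names a genotype other than the title does.

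TDP-43 is an RNA-binding protein of the nucleus that binds UG-rich stretches of pre-mRNA. It keeps the splicing machinery from using intronic sequences that resemble exons. When it is lost, such cryptic exons enter the mRNA, and many of them bring a frameshift or a premature stop codon, so that the transcript is destroyed by nonsense-mediated decay. TDP-43 also sets the inclusion of ordinary cassette exons, which may leave the amount of mRNA as it was. The deposited values are gene-level TPM (transcript abundance per length and per library) further normalized between libraries. They hold how much of a gene's annotated RNA was present, and no value of a single exon, junction or cryptic exon.

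Tardbp itself, the deleted gene, had 103, 94.2 and 103 normalized TPM in the cKO libraries, against 177, 179 and 186 in the cHet libraries and 185, 194 and 217 in the control libraries. The cKO libraries were all below the other 6, including cKO replicates 1 and 2, whose genotype field names the cHet genotype. The field of cHet replicate 1 names the control genotype. Its level of 177 was the lowest of these 6, but the cHet and control ranges overlapped, so Tardbp does not settle that label. Between cKO and control Tardbp differed by -0.98 ± 0.09 (SE) on the log2 scale (limma, adjusted p = 0.0022). The cHet against control difference of -0.14 did not pass the threshold (limma, adjusted p = 1.0), with a 95% interval of -0.33 to 0.06. In a whole nerve, fewer cells that use a gene and less RNA per cell cannot be told apart.

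The 9 Schwann cell markers reported here were abundant, with sums between 40224 and 59396 normalized TPM in cKO, 51207 and 69617 in cHet, and 54468 and 64269 in control libraries. None was called in any comparison, 7 of 9 were below 0 between cKO and control (median log2 fold change -0.16), while 2 stood above and 1 below the other 6 libraries in all 3 cKO libraries. Egr2, a transcription factor of myelination, had 51.8, 45.7 and 58.2 normalized TPM in the cKO libraries, against 27.1, 40.5 and 40.4 in the cHet libraries and 27.8, 31.3 and 36.3 in the control libraries (cKO against control, limma, adjusted p = 0.12). S100b, a calcium-binding protein of glia, had 739, 990 and 813 in the cKO libraries, against 538, 593 and 486 in the cHet libraries and 506, 683 and 493 in the control libraries (limma, adjusted p = 0.15). Mbp, the myelin basic protein gene, had 16615, 21488 and 15387 in the cKO libraries, against 22077, 31048 and 24886 in the cHet libraries and 23178, 25577 and 26727 in the control libraries (limma, adjusted p = 0.52). The part of these 3 markers in the results between cKO and the other genotypes was not tested.

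For markers of other cells the ranges of the summed levels overlapped between genotypes. The summed level of 10 neuron markers ranged between 352 and 1871 in cKO, 191 and 1698 in cHet, and 188 and 4353 in control libraries. The 10 skeletal muscle markers summed to between 216 and 8674 in cKO, 25.9 and 292 in cHet, and 46.8 and 16529 in control libraries. The 8 adipocyte markers summed to between 348 and 440 in cKO, 57.8 and 552 in cHet, and 92.8 and 2905 in control libraries. None of these 3 lists had a gene past the threshold in any comparison, but the signs were uneven. All 7 tested adipocyte markers were below 0 between cKO and control (median log2 fold change -1.16) and between cHet and control (-1.67). Between cKO and cHet all 7 were above 0 (0.59). In these comparisons in turn, 8 (1.56), 0 (-1.65) and 9 (3.07) of 10 muscle markers were above 0. Of 10 neuron markers, 7 (0.40), 6 (0.11) and 10 (0.34) were. The part of these markers in the results was not tested. The 7 macrophage markers (89.6 to 144 in cKO, 105 to 127 in cHet, and 83.8 to 150 in control libraries) and the 7 fibroblast markers (4624 to 8672 in cKO, 6941 to 7249 in cHet, and 5667 to 8658 in control libraries) overlapped between groups. The 6 endothelial markers summed to between 103 and 167 in cKO, 147 and 168 in cHet, and 131 and 171 in control libraries. None of the 6 was called, but all 6 were below 0 between cKO and control (median log2 fold change -0.32) and between cKO and cHet (median -0.27, 2 with an unadjusted limma p under 0.05). Their mean log2 level, set against the median library, was between -0.42 and -0.07 in cKO and between 0 and 0.08 in cHet libraries, which did not overlap, and between -0.23 and 0.26 in control libraries. The part of the endothelial markers in the results was not tested.

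Among the 8 genes, 2 were lower and 1 was higher in cKO nerves. Synj2bp and Mib1 fell in cKO nerves, to 42.3% and 60.8% of their mean control levels. Adnp2 rose, to 178% of its mean control level. Tecpr1, Ift81, Usp15, Sort1 and Poldip3 did not pass the threshold between cKO and control. The 2 genes that fell compare with 95 of all 15014 tested genes (0.633%) and the gene that rose with 140 (0.932%), together 235 genes (1.57%). The median log2 fold change of the 8 genes was -0.13 between cKO and control, beside -0.02 over all tested genes. The row of an overlapping gene model stood higher in the cKO libraries, and its sum with Synj2bp was not called, as described for the Synj2bp locus. How reads were divided between these rows was not tested.

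The same 3 genes were called between cKO and cHet, 2 of them lower in cKO and 1 higher, while over all genes 116 (0.773%) were lower and 140 (0.932%) higher, together 256 (1.71%). Rescaled to the same sum per library, 90 of 292 called genes were higher in cKO than in cHet, while the 3 genes kept their calls and directions. Both comparisons share the cKO libraries. Between cHet and control, none of the 8 genes was called, and no gene of the 15014 was (0%). At an unadjusted limma p under 0.05, 408 genes and none of the 8 stood in this last comparison. The exact permutation test of a single gene with 3 libraries against 3 cannot give a p under 0.1, and it gave 0.1 for each of the 3 called genes between cKO and control and between cKO and cHet (exact, two-sided).

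**Figure D1:**
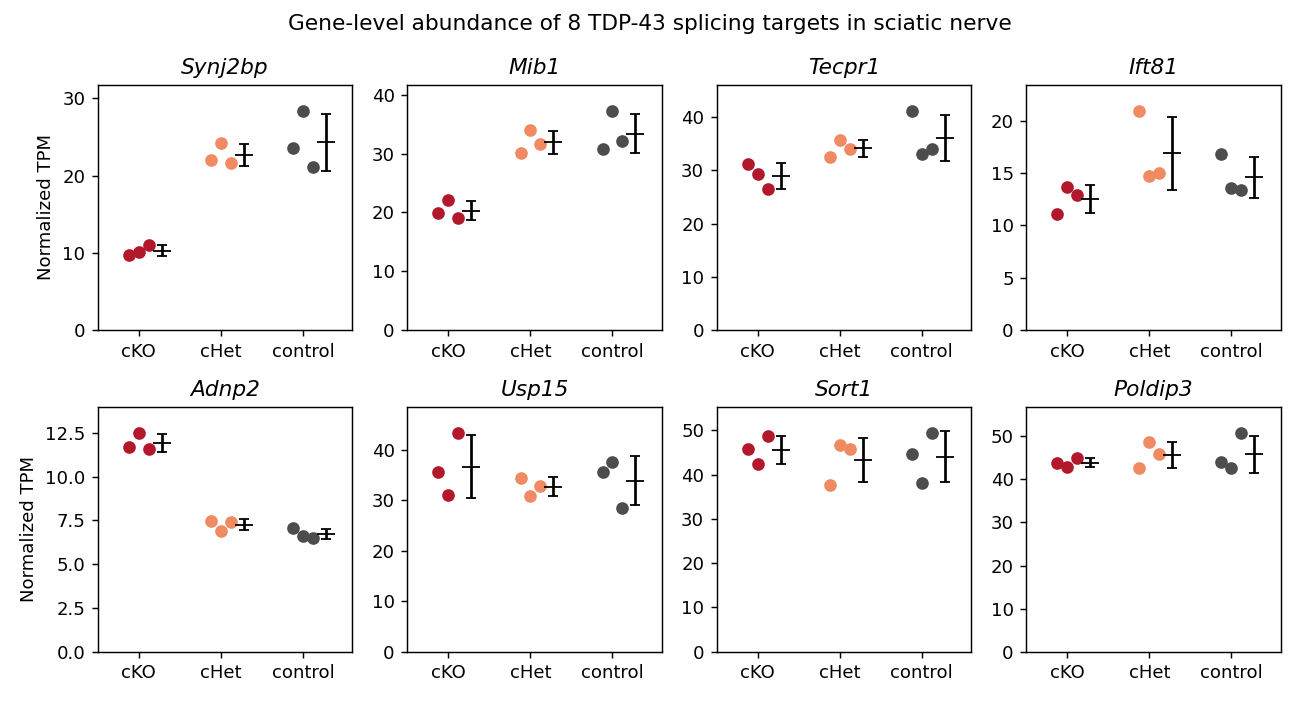
Normalized TPM of each of the 8 genes on the y axis, by genotype on the x axis. Points are libraries (3 per genotype) and bars give the mean ± SD. The cKO points of Synj2bp lie between 9.72 and 11.0 and those of Mib1 between 19.0 and 22.1, below all other libraries, while those of Adnp2 lie between 11.6 and 12.5, above all other libraries.

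The fitted differences of all 8 genes were set side by side with their intervals. In the cHet against control comparison every interval spans 0, and the widest reaches 0.57 on the log2 scale (Ift81).

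**Figure D2:**
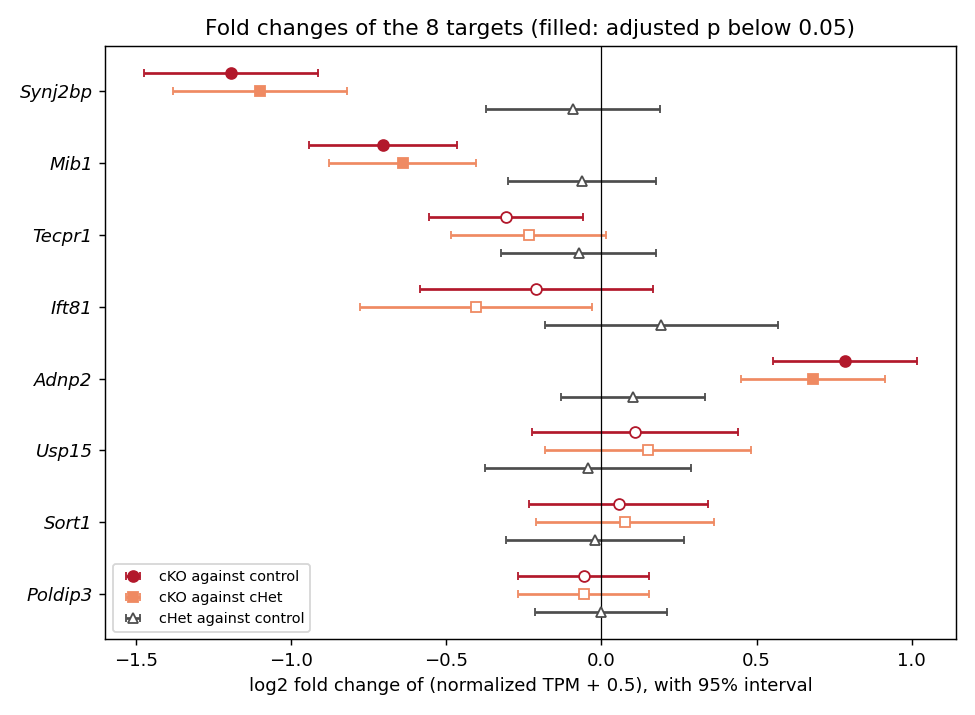
Log2 fold change of normalized TPM (x axis, after adding 0.5) with its 95% interval for each gene and comparison. Filled symbols mark an adjusted p below 0.05. They are those of Synj2bp, Mib1 and Adnp2 in the comparisons of cKO with control and with cHet.

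Synj2bp encodes a protein of the outer mitochondrial membrane with a PDZ domain facing the cytosol, which binds synaptojanin 2 and links mitochondria to partners such as the ribosome-binding protein of the endoplasmic reticulum, RRBP1. The gene (ENSMUSG00000090935) lies on the minus strand at chr12:81497941-81532911 (GRCm38) and has 5 annotated transcripts, 4 of them coding. It had 9.72, 10.1 and 11.0 normalized TPM in the cKO libraries, against 22.0, 24.3 and 21.6 in the cHet libraries and 23.5, 28.3 and 21.1 in the control libraries. No cKO library came near a library of another genotype, and the cHet and control ranges overlapped. Synj2bp had a log2 fold change of -1.19 ± 0.12 (SE) between cKO and control (limma, adjusted p = 0.0041) and -1.10 ± 0.12 between cKO and cHet (limma, adjusted p = 0.0059). By its p-value Synj2bp ranked 25 among the 15014 tested genes in cKO against control. Between cHet and control the difference was -0.09, with a 95% interval of -0.37 to 0.19. Synj2bp kept its call in both cKO comparisons whichever single library was left out.

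A second gene model lies over the whole of Synj2bp on the same strand. Gm20498 (ENSMUSG00000021139, chr12:81358860-81532905) joins exons of Synj2bp to exons of the next gene, Cox16, and 3 of the 4 exons of the main Synj2bp transcript (Synj2bp-203) overlap its exons. What is particular to Synj2bp-203 is its last exon, 4226 of its 4655 bases, which holds most of its length. The next lines show why a read from the shared exons fits both models. In both models capitals mark the last shared exon (exon 3, chr12:81504544-81504639, 96 bases, coding, minus strand), and lower case the first 24 bases of the exon that follows in each model.
Synj2bp-203: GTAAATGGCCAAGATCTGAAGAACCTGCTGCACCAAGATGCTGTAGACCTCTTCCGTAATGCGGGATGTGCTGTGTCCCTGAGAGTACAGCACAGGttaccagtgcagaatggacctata
Gm20498-202: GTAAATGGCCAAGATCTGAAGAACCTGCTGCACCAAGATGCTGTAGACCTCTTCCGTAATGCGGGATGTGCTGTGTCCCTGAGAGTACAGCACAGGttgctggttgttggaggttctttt

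Gm20498 went the other way from Synj2bp. It had 31.5, 50.1 and 38.3 normalized TPM in the cKO libraries, against 17.6, 17.9 and 15.7 in the cHet libraries and 14.2, 27.0 and 19.2 in the control libraries, so that the cKO libraries were above all others. The log2 fold change was 0.995 ± 0.24 (SE) between cKO and control, which did not pass the threshold (limma, adjusted p = 0.094), and 1.18 ± 0.24 between cKO and cHet (limma, adjusted p = 0.051). The sum of both rows, set after their values were seen, was 41.2, 60.2 and 49.3 normalized TPM in the cKO libraries, against 39.6, 42.2 and 37.3 in the cHet libraries and 37.7, 55.3 and 40.2 in the control libraries. The summed ranges of cKO and control overlapped, and the log2 fold change of the sum was 0.18 between cKO and control (95% interval -0.22 to 0.58, limma, adjusted p = 0.76). Between cKO and cHet it was 0.32 (95% interval -0.08 to 0.72, limma, adjusted p = 0.45).

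Synj2bp made up 23.6, 16.8 and 22.3% of this sum in the cKO libraries, against 55.5, 57.5 and 57.9% in the cHet libraries and 62.4, 51.2 and 52.4% in the control libraries. Cox16, an assembly factor of cytochrome c oxidase, had 88.4, 120 and 97.6 normalized TPM in the cKO libraries, against 92.2, 77.4 and 86.4 in the cHet libraries and 97.4, 106 and 96.1 in the control libraries. Its cKO and control ranges overlapped (log2 fold change 0.02, 95% interval -0.26 to 0.30, limma, adjusted p = 0.97). The values therefore show that the balance between the Synj2bp and the Gm20498 rows differed in cKO nerves, and they do not show that less RNA was made from their shared exons.

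**Figure D3:**
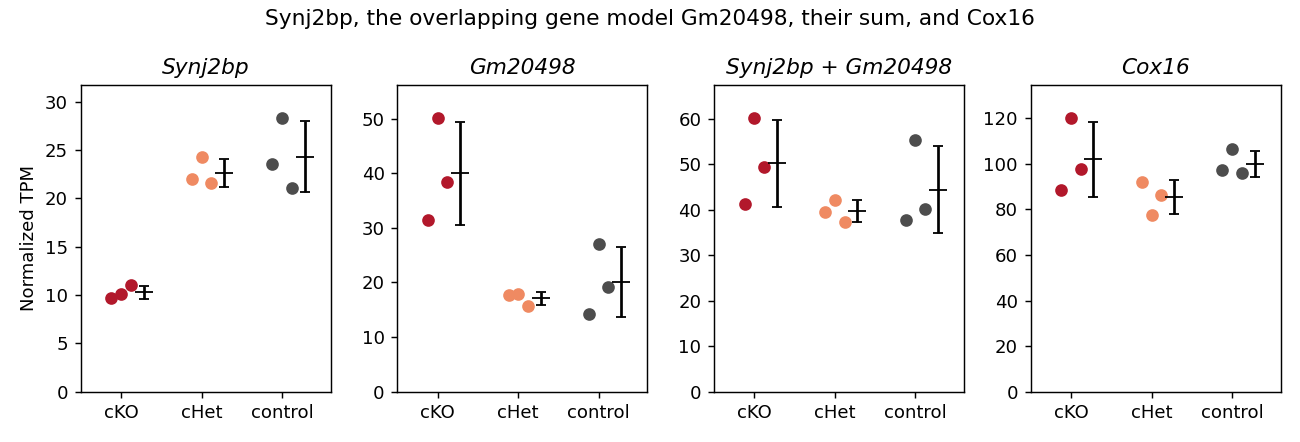
Normalized TPM on the y axis of Synj2bp, the overlapping model Gm20498, the sum of both and Cox16, by genotype on the x axis. Points are libraries (3 per genotype) and bars give the mean ± SD. Synj2bp was lower and Gm20498 higher in all cKO libraries, while the cKO sums (41.2 to 60.2) overlapped the control sums (37.7 to 55.3).

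Tecpr1 encodes a protein with tectonin repeats that binds the ATG5 and ATG12 conjugate and takes part in the fusion of autophagosomes with lysosomes. The gene (ENSMUSG00000066621, chr5:144194442-144223615, minus strand, GRCm38) has 12 annotated transcripts, 10 of them with a retained intron and 1 coding. It is shown here because TDP-43 binds UG repeats, and one of these retained introns holds a long one close to a splice site. Among transcripts of Tecpr1 the longest unbroken alternation of G and T, 35 bases, lies in Tecpr1-204, just after the end of exon 2. The stretch printed is chr5:144218458-144218516 (minus strand, 59 bases). Its first 3 bases are the end of the coding exon 2 and the rest is intron in the coding transcript. Capitals mark the alternating run.
Tecpr1-204: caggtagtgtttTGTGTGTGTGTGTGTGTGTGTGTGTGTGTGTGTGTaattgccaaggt

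An alternating G and T run of at least 30 bases, read on the transcript strand only, was found in annotated transcripts of 3 of the 8 genes (Tecpr1, 35 bases; Mib1, 50 bases; Usp15, 48 bases). Of 14810 tested genes with an annotated transcript sequence, 804 (5.43%) held one. In the other 5 genes the longest run was 11 bases (Synj2bp), 10 bases (Poldip3), 9 bases (Sort1) and 8 bases (Adnp2 and Ift81), against a median of 7 bases over all genes. Most introns are not part of annotated transcripts, and the search says nothing of them. Annotated transcripts with a retained intron numbered 10 for Tecpr1, 8 for Usp15 and 2 for Mib1, and 0 to 3 for the other 5 genes. The share over all genes was not matched for this number.

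Tecpr1 had 31.2, 29.4 and 26.4 normalized TPM in the cKO libraries, against 32.6, 35.8 and 34.1 in the cHet libraries and 41.1, 33.2 and 34.0 in the control libraries. The cKO libraries were below all others by a small margin. The log2 fold change was -0.31 ± 0.11 (SE) between cKO and control, with an unadjusted p of 0.021 that did not pass the threshold after adjustment (limma, adjusted p = 0.26). Groups that do not overlap were common in these data. Between cKO and control, cKO was below control in all libraries for 3 of the 8 genes (Synj2bp, Mib1 and Tecpr1) and for 1286 of all tested genes (8.57%), and above in all libraries for 1 of the 8 (Adnp2) and for 1329 of all (8.85%). Between cKO and cHet, 4 of the 8 genes were below (the same 3 and Ift81), as were 1652 of all genes (11.0%), and 1 was above (Adnp2), as were 1991 of all (13.3%).

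None of 15 genes of the autophagosome machinery around Tecpr1 was called in any comparison. Their median fold change between cKO and control was 0.08 on the log2 scale, against -0.02 over all genes, and 8 were above 0. Tecpr2, the paralog, averaged 5.35 normalized TPM in cKO and 5.95 in control nerves. Atg16l1, the partner that places the ATG5 and ATG12 conjugate on membranes, averaged 33.9 in cKO and 26.4 in control nerves, and Atg5 18.9 in cKO and 15.5 in control nerves, both short of the threshold (limma, adjusted p = 0.29 and 0.32).

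Ift81 encodes a subunit of the intraflagellar transport B complex, which carries cargo into cilia and, with IFT74, binds tubulin. The gene (ENSMUSG00000029469, chr5:122550204-122614518, minus strand, GRCm38) has 9 annotated transcripts, 2 of them marked for nonsense-mediated decay. It had 11.0, 13.6 and 12.9 normalized TPM in the cKO libraries, against 20.9, 14.7 and 15.0 in the cHet libraries and 16.9, 13.5 and 13.3 in the control libraries. The cKO and control ranges overlapped, and cHet replicate 1 stood above all other libraries. The log2 fold change was -0.21 (95% interval -0.59 to 0.17) between cKO and control (limma, adjusted p = 0.68) and -0.40 (95% interval -0.78 to -0.03) between cKO and cHet (limma, adjusted p = 0.30).

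Of the 14 other subunits of the complex, none was called in any comparison. Ift74, which pairs with Ift81, averaged 18.8 normalized TPM in cKO and 16.4 in control nerves. The lowest p among them was that of Ift22, a small GTPase of the complex, with 22.2, 24.0 and 20.5 normalized TPM in the cKO libraries, against 36.6, 31.9 and 30.2 in the cHet libraries and 29.0, 36.5 and 33.6 in the control libraries. Its cKO against control difference was -0.56 ± 0.12 (SE) on the log2 scale (limma, adjusted p = 0.067). The median over the 14 subunits was -0.01 on the log2 scale.

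Sort1 encodes sortilin, a sorting receptor of the Vps10p family that binds progranulin, proneurotrophins and other ligands, and Poldip3 encodes a protein that binds the S6 kinase and takes part in mRNA export. In both genes TDP-43 is known to act on a cassette exon rather than on the amount of mRNA. In Sort1 it keeps an exon out, and in Poldip3 it keeps an exon in. Both exons are annotated, and they are printed here as the known sites, with the exon in capitals and 12 bases of each neighbouring exon in lower case. The Sort1 exon is exon 18 of Sort1-203 (chr3:108355472-108355570, plus strand, 99 bases, coding) and is absent from Sort1-201. The Poldip3 exon is exon 3 of Poldip3-201 (chr15:83137468-83137554, minus strand, 87 bases, coding) and is absent from Poldip3-202 and Poldip3-203.
Sort1-203: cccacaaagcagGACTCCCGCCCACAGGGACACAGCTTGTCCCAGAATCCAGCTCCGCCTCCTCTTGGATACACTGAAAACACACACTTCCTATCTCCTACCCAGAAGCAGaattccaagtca
Poldip3-201: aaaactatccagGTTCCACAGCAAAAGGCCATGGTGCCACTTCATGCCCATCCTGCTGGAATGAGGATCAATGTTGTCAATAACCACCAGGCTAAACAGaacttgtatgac

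Sort1 (ENSMUSG00000068747, chr3:108284082-108361511) had 45.7, 42.4 and 48.7 normalized TPM in the cKO libraries, against 37.7, 46.8 and 45.7 in the cHet libraries and 44.7, 38.0 and 49.4 in the control libraries. All 3 ranges overlapped. The cKO nerves differed from control by 0.06 on the log2 scale, with a 95% interval of -0.23 to 0.34 (limma, adjusted p = 0.92). Gene-level values add the forms with and without the 99-base exon, so how often the exon was used was not measured here.

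Poldip3 (ENSMUSG00000041815, chr15:83125976-83149384) had 43.9, 42.9 and 44.9 normalized TPM in the cKO libraries, against 42.6, 48.7 and 45.9 in the cHet libraries and 44.0, 42.7 and 50.8 in the control libraries. All 3 ranges overlapped here too. On the log2 scale cKO differed from control by -0.06, with a 95% interval of -0.27 to 0.15 (limma, adjusted p = 0.88). The interval corresponds to levels between 0.830-fold and 1.11-fold of control, and it was the narrowest of the 8 intervals on the log2 scale.

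Around Sort1, 14 of 16 ligands, co-receptors, related receptors and sorting adaptors reached the minimum level and none was called. Grn, which encodes progranulin, averaged 115 normalized TPM in cKO and 87.2 in control nerves (log2 fold change 0.40, limma, adjusted p = 0.17). Sorcs2, another receptor of the family, averaged 19.6 in cKO and 13.5 in control nerves (limma, adjusted p = 0.28). The median over the 14 genes was 0.06 on the log2 scale. Of 17 genes around Poldip3 (mRNA export and exon junction genes, the S6 kinases and the DNA polymerase gene Pold2) none was called, with a median of -0.01. Eif4a3, a core part of the exon junction complex, averaged 79.7 in cKO and 61.2 in control nerves (limma, adjusted p = 0.12).

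Usp15 encodes a deubiquitinase that acts, among other substrates, on SMAD proteins and the TGF-beta receptor. The gene (ENSMUSG00000020124, chr10:123105006-123196995, minus strand) had 35.6, 31.0 and 43.3 normalized TPM in the cKO libraries, against 34.4, 30.8 and 32.8 in the cHet libraries and 35.6, 37.5 and 28.5 in the control libraries. All 3 ranges overlapped, and the male cKO library (replicate 3) was the highest and the male control library (replicate 3) the lowest of the 9. Between cKO and control the difference was 0.11 on the log2 scale, with a 95% interval of -0.22 to 0.44 (limma, adjusted p = 0.84). The difference between females and males in this fold change was -0.73 on the log2 scale (interaction term, limma, unadjusted p = 0.020, adjusted p = 0.66). It did not pass the threshold, and the male value rests on 1 library per genotype. None of 13 paralogs and partners of Usp15 was called, with a median log2 fold change of 0.01. Usp4, its paralog, averaged 54.5 in cKO and 46.0 in control nerves (limma, adjusted p = 0.34).

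Mib1 encodes an E3 ubiquitin ligase that marks Notch ligands for endocytosis in the cell that sends the signal. The gene (ENSMUSG00000024294, chr18:10725548-10818704, plus strand, GRCm38) has 6 annotated transcripts. It had 19.8, 22.1 and 19.0 normalized TPM in the cKO libraries, against 30.1, 34.0 and 31.7 in the cHet libraries and 30.8, 37.2 and 32.2 in the control libraries. The cKO libraries were all below the other 6, whose ranges overlapped. Mib1 had a log2 fold change of -0.70 ± 0.10 (SE) between cKO and control (limma, adjusted p = 0.017) and -0.64 ± 0.10 between cKO and cHet (limma, adjusted p = 0.025). Between cHet and control it was -0.06, with a 95% interval of -0.30 to 0.18. In the cKO against control fit the call was lost without cKO replicate 1 (log2 fold change -0.69, adjusted p = 0.092) and without cKO replicate 3 (-0.66, adjusted p = 0.068), while the size of the difference stayed between -0.76 and -0.62 whichever library was left out. In the cKO against cHet fit it was lost without cKO replicate 1 or 3 or any of the cHet replicates (limma, adjusted p between 0.055 and 0.12), at a size between -0.70 and -0.60.

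None of 18 other genes of the Notch pathway was called in any comparison. Their median fold change between cKO and control was -0.14 on the log2 scale, against -0.02 over all genes, with 14 of 18 below 0. The shift was not particular to cKO. Between cHet and control the median was also -0.14, against -0.03 over all genes, with 15 of 18 below 0. Between cKO and cHet it was -0.10, against 0.02 over all genes, with 11 of 18 below 0. Mib2, the other Mind bomb ligase, averaged 38.0 normalized TPM in cKO and 40.8 in control nerves (log2 fold change -0.07). Among ligands, Jag1 averaged 7.57 in cKO and 8.72 in control nerves. Among receptors, Notch3 had the smallest p of the list, with means of 4.82 in cKO and 6.67 in control nerves (limma, adjusted p = 0.27). The target gene Hes1 averaged 24.7 in cKO and 17.9 in control nerves (limma, adjusted p = 0.40).

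Adnp2 encodes a zinc finger protein with a homeobox, the paralog of the chromatin regulator ADNP. The gene (ENSMUSG00000053950, chr18:80126311-80151482, minus strand, GRCm38) has 1 annotated transcript and no overlapping gene. It was the least abundant of the 8 per length over the 9 libraries, with 11.7, 12.5 and 11.6 normalized TPM in the cKO libraries, against 7.46, 6.90 and 7.39 in the cHet libraries and 7.05, 6.61 and 6.48 in the control libraries. The cKO libraries were all above the other 6. The spread within genotypes was small, at 0.06 on the log2 scale, lower than in all but 0.906% of tested genes. Adnp2 rose by a log2 fold change of 0.79 ± 0.10 (SE) between cKO and control (limma, adjusted p = 0.011) and 0.68 ± 0.10 between cKO and cHet (limma, adjusted p = 0.018), and 0.10 (95% interval -0.13 to 0.33) between cHet and control. In the cKO against control fit the call was lost without cKO replicate 1 (log2 fold change 0.80, adjusted p = 0.059) and without cKO replicate 3 (0.80, adjusted p = 0.053), with a size between 0.75 and 0.82 whichever library was left out. In the cKO against cHet fit it was lost without any of the cKO or cHet replicates (limma, adjusted p between 0.053 and 0.097), at a size between 0.65 and 0.70.

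Adnp, the paralog, had 19.2, 11.8 and 18.6 normalized TPM in the cKO libraries, against 23.0, 31.4 and 21.4 in the cHet libraries and 19.1, 27.1 and 32.3 in the control libraries. Its cKO and control ranges overlapped, and the log2 fold change of -0.65 ± 0.25 (SE) did not pass the threshold (limma, adjusted p = 0.32). Of 12 paralogs and partners of Adnp2 and Synj2bp, 1 was called between cKO and control. This was Cbx5, which encodes the heterochromatin protein HP1 alpha, a partner of ADNP. It had 30.6, 29.3 and 33.0 normalized TPM in the cKO libraries, against 39.9, 44.5 and 40.8 in the cHet libraries and 41.0, 44.5 and 41.1 in the control libraries. Its log2 fold change was -0.44 ± 0.08 (SE) (limma, adjusted p = 0.047), and -0.42 between cKO and cHet, just short of the threshold (limma, adjusted p = 0.051). The other HP1 genes differed less, with Cbx1 at a mean of 48.8 in cKO and 48.6 in control nerves and Cbx3 at 135 in cKO and 129 in control nerves. The Synj2bp partners Synj2 (4.58 in cKO and 4.84 in control nerves) and Rrbp1 (132 in cKO and 122 in control nerves) were not called.

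**Figure D4:**
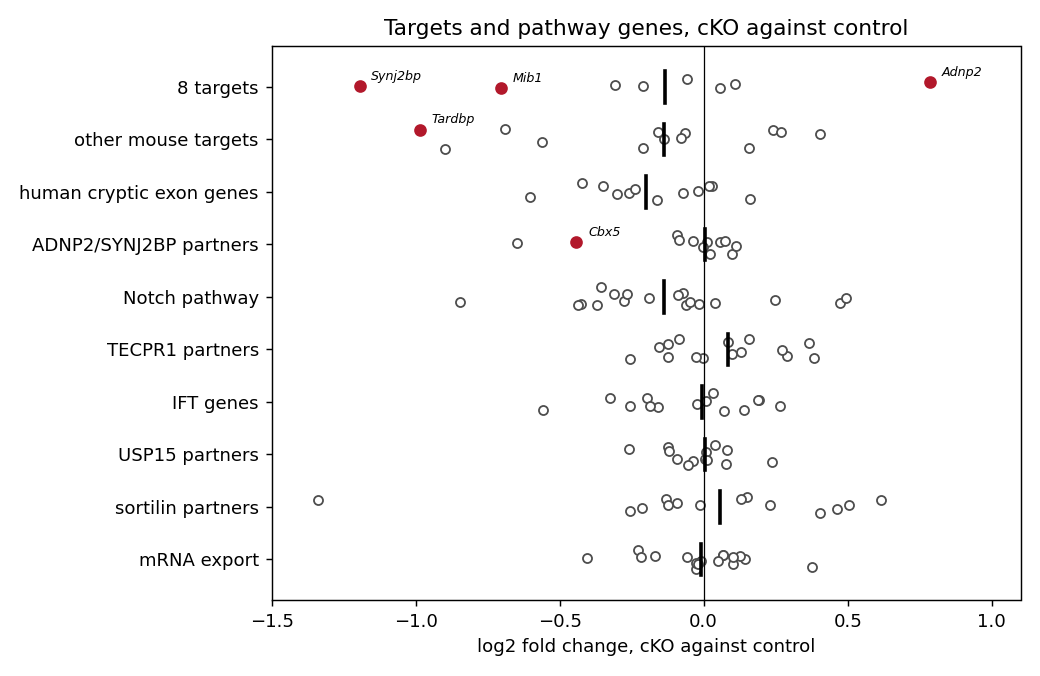
Log2 fold change between cKO and control (x axis) of each tested gene of the 8 targets, of further TDP-43 targets and of the lists of partners, with the list on the y axis. Filled red points passed an adjusted p of 0.05, and the black bar is the median of the list. Outside the 8 targets the filled points are Tardbp (-0.98) and Cbx5 (-0.44).

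Seen across the 9 libraries, the 3 called genes followed a genotype step between cKO and the rest. The genes whose log2 levels correlated most with each were chosen from all tested genes, so the coefficients are a description over 9 libraries that share the same genotype groups. For Synj2bp they were Impa2 (r = 0.99), which encodes an inositol monophosphatase, Cbx5 (r = 0.98) and Acly (r = 0.97), which encodes the enzyme that makes cytosolic acetyl-CoA. For Mib1 they were Chp2 (r = 0.98), Kcnmb4 (r = 0.98), an accessory subunit of a calcium-activated potassium channel, and Fam81a (r = 0.97). For Adnp2 they were Olfr578 (r = 0.99), annotated as an olfactory receptor gene, Nccrp1 (r = 0.99) and Rai14 (r = 0.99). Rai14 had 149, 131 and 141 normalized TPM in the cKO libraries, against 33.1, 37.9 and 35.9 in the cHet libraries and 31.1, 27.8 and 27.6 in the control libraries.

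Further mouse genes known as targets of TDP-43 gave no call between cKO and control beyond Tardbp, the deleted gene. Of 13 tested, Tardbp was the only one past the threshold, and it is the gene that Cre deletes by design. The median log2 fold change, with Tardbp counted, was -0.14. Some of these genes varied widely within a genotype. In the control libraries Cadps had 1.37, 40.8 and 0.724 normalized TPM, and Kcnip2 had 1.77, 23.6 and 3.83. Control replicate 2, the highest in both, was also the highest in neuron markers. For such genes the lack of a call does not show an unchanged level. Nlgn1, which encodes a synaptic adhesion protein, was low in all libraries, with 0.934, 1.04 and 1.35 normalized TPM in the cKO libraries, against 2.66, 2.50 and 2.19 in the cHet libraries and 2.78, 2.66 and 2.05 in the control libraries (log2 fold change -0.90, limma, adjusted p = 0.094). Nfasc, the paranodal adhesion gene on which the study centres, had 103, 87.1 and 93.9 normalized TPM in the cKO libraries, against 139, 165 and 156 in the cHet libraries and 111, 115 and 214 in the control libraries. The cKO values of Nfasc were below all others, and the log2 fold change of -0.56 did not pass the threshold (limma, adjusted p = 0.35). The study itself named Nfasc as a target, from reads across splice junctions in this same series. In Dhh-Cre knockouts it also reported less mRNA of the Schwann cell form and no detectable protein of that form. Gene-level values add all forms of Nfasc, including those the paper ascribes to neurons.

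Between cKO and control, calls were lost when libraries that stand apart were left out together, while the directions stayed. Without the 3 libraries highest in neuron markers (cKO replicate 3, cHet replicate 1 and control replicate 2), none of the 8 genes was called between cKO and control. The log2 fold changes were then -1.13 for Synj2bp, -0.58 for Mib1 and 0.79 for Adnp2 (limma, adjusted p = 0.067, 0.18 and 0.16). Without the libraries highest in skeletal muscle markers (cKO replicate 3 and control replicate 1) they were -1.26, -0.71 and 0.84, and none was called (limma, adjusted p = 0.066, 0.13 and 0.12). Without the libraries highest in adipocyte markers (control replicates 1 and 3), Synj2bp was the only one of the 8 called. These 3 settings have fewer libraries, and calls over all tested genes fell from 235 to 16, 23 and 19 in turn. With the neuron marker level as a covariate and all 9 libraries kept, all 3 genes stayed called. The adjusted p was then 0.0032 for Synj2bp, 0.023 for Mib1 and 0.014 for Adnp2 (limma). Without the 3 libraries whose genotype field differs from the title, which leaves 1 cKO library that is assumed to vary like the others, the differences were -1.10, -0.79 and 0.75, and none of the 8 genes or of all tested genes was called.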

How the data were processed

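The authors deposited 1 table of normalized TPM signal for 36121 Ensembl genes in 9 libraries. Per the labels, the tools were kallisto 0.44.0 and sleuth 0.30.0 and the build GRCm38. Their parameters, the strandedness and the annotation behind this table are not stated (the Ensembl release in the study's methods is given for a separate alignment used for splice junctions). The values are not counts, so the read depth of each library is unknown. Library sums were 934932 to 1158094. Symbols came from GENCODE M21 and were matched for 35471 genes. Log2(value + 0.5) of 15014 genes (mean of 1 or more over 9 libraries) were fitted with limma 3.58.1 in R 4.3.3 (all 9 libraries, eBayes with trend, Benjamini-Hochberg adjustment over all tested genes, threshold 0.05), after a test on simulated data. Fold changes are on that scale and understate low genes. Single genes also had an exact permutation test. The study's methods give 3 mice per genotype, and the titles carry 9 different mouse numbers. Alternatives covered pseudocounts, filters, scalings, covariates, weights and left-out libraries. The text names the 8 genes, Tardbp, up to 4 called genes per partner list, and the 3 genes most correlated with each called gene. Gm20498 and its sum with Synj2bp, and uncalled partners given with values, were chosen after values were seen. The 8 genes and all lists were chosen with earlier results of these data known. Sequences are from GENCODE M21 transcripts (GRCm38). Of 10 listed Schwann cell markers, 1 is not reported here.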

Additional observations from a re-analysis of the deposited data

How the results depend on the processing

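The number of the 8 genes called was 3 between cKO and control and 3 between cKO and cHet. Without the libraries high in neuron markers, those high in skeletal muscle markers, or those whose genotype field differs from the title, it was 0 in both comparisons. It was 1 between cKO and control when only these genotypes were fitted or without the libraries high in adipocyte markers, and 1 to 3 in both comparisons when each library was left out in turn. All these settings have fewer samples. With the neuron marker covariate and all libraries kept, the number stayed 3 in both comparisons. Between cHet and control it was 0 in every alternative. With Synj2bp and Gm20498 summed, a setting chosen after the values were seen, 2 genes were called in each cKO comparison, and the Synj2bp difference turned to 0.18 (cKO and control) and 0.32 (cKO and cHet) on the log2 scale. With both rows kept apart, Synj2bp lay between -1.42 and -1.08, Mib1 between -0.86 and -0.58 and Adnp2 between 0.72 and 0.85 between cKO and control over all alternatives. Over all tested genes, the calls numbered 0 to 274 (235 as reported) between cKO and control, 0 to 848 (256 as reported) between cKO and cHet and 0 to 2 (0 as reported) between cHet and control, with the lowest counts of the first pair where libraries were left out. Rescaling libraries to the same sum moved the median of all genes between cKO and cHet to -0.12, against 0.02 as reported.

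Apart from Synj2bp when summed with Gm20498, signs turned in differences that were not called. Between cHet and control, the values without the neuron-high libraries were -0.013 (Ift81), 0.058 (Mib1), 0.040 (Synj2bp) and 6.2e-05 (Poldip3). With libraries rescaled to the same sum they were 0.0028 (Tecpr1), 0.014 (Mib1), 0.033 (Usp15), 0.056 (Sort1) and 0.076 (Poldip3). With array weights they were 0.035 (Poldip3) and 0.039 (Sort1), and with quantile normalization 0.055 (Poldip3), 0.041 (Sort1) and 0.012 (Usp15). Poldip3 was 0.0085 with median-of-ratios scaling and 0.0011 with the neuron covariate. Without the adipocyte-high libraries the values were 0.097 (Poldip3), 0.18 (Sort1) and 0.041 (Tecpr1), without the mismatched libraries 0.049 (Poldip3) and 0.077 (Sort1), and without the muscle-high libraries 0.023 (Tecpr1). Between cKO and control, Sort1 was -0.093 without the neuron-high libraries and -0.011 after rescaling, and Poldip3 was 0.040 and Usp15 -0.048 without the adipocyte-high libraries. Between cKO and cHet, Sort1 was -0.070 without the neuron-high libraries and -0.067 after rescaling.

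With each library left out in turn, the ranges that crossed 0 were, between cHet and control, -0.19 to 0.021 (Synj2bp), -0.13 to 0.023 (Tecpr1), -0.12 to 0.017 (Mib1), -0.16 to 0.035 (Usp15), -0.12 to 0.077 (Sort1) and -0.049 to 0.075 (Poldip3). Between cKO and control they were -0.018 to 0.22 (Usp15), -0.045 to 0.14 (Sort1) and -0.11 to 0.018 (Poldip3), and between cKO and cHet -0.022 to 0.13 (Sort1). The cause of these turns was not tested. No paired analysis was run. The paper's methods describe sets of age-matched mice of each genotype, taken from a single litter or from litters born close in time. The titles carry mouse numbers, and the labels name no litter or set shared between genotypes. Any such matching was therefore left out of the fits, and its part in the results was not tested. Read depth is unknown, so no counting error could be given.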

Other observations

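Genes that gain a cryptic exon on loss of TDP-43 in human cells were measured for their mouse counterparts, whose introns differ in sequence from the human ones. Of 12 such genes none was called in any comparison. On the log2 scale the median difference between cKO and control was -0.20, with 9 of 12 below 0, against -0.02 over all tested genes. Between cHet and control the median was -0.15, with 8 of 12 below 0, against -0.03 over all tested genes. Between cKO and cHet it was -0.09, with 8 of 12 below 0, against 0.02 over all tested genes. Agrn, which encodes the basement membrane proteoglycan agrin, had 69.2, 75.3 and 62.4 normalized TPM in the cKO libraries, against 87.7, 106 and 102 in the cHet libraries and 87.7, 89.2 and 101 in the control libraries. The cKO libraries were below all others (log2 fold change -0.42, limma, adjusted p = 0.12). Stmn2, a neuronal regulator of microtubules, averaged 59.4 normalized TPM in cKO and 96.9 in control nerves with a log2 fold change of 0.03, and Unc13a, a gene of synaptic vesicle priming, averaged 2.77 in cKO and 4.26 in control nerves. Stmn2 and Unc13a are neuronal genes and the neuron markers differed between libraries of 1 genotype, and the part of those markers in these values was not tested.

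Other gene models that overlap the 8 genes gave little. Apart from Gm20498, the table holds 1 such model, the pseudogene Gm47726 in Usp15, which was at 0 normalized TPM in all 3 cKO libraries, and at most at 0.427 in cHet and 0.978 in control libraries.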
